A study of Sus scrofa with 9 samples.

Results

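The axoneme is the microtubule core of the sperm tail, and the genes described here encode its structural parts and the factors that assemble its dynein motors. Members were all genes of the deposited count table whose symbol begins with CFAP, DRC, TEKT, DNAI, DNAL, DNAAF or ODAD and a digit, or with RSPH. This rule found 72 of the 22342 genes, 14749 of which had a symbol, and it used no measured value. All 72 passed the filter on low counts. RefSeq locations, given below on assembly Sscrofa11.1, were found by symbol for 43 of them.

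An axoneme is built of doublet microtubules around a central pair. Outer and inner dynein arms on each doublet walk along the next one, the nexin-dynein regulatory complex links the doublets and holds back their sliding, radial spokes carry signals from the central apparatus to the arms, and tektins and other proteins line the inside of the doublet wall. Dynein arms are put together in the cytoplasm by dedicated assembly factors before transport into the tail, and in the testis the tail begins to grow in round spermatids.

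The series followed gene expression, beside chromatin structure, through sperm formation in the pig, Sus scrofa. Total RNA of testis cells was sequenced from spermatogonia (the mitotic germ cells), spermatocytes (cells in meiosis) and round spermatids (the haploid cells that meiosis leaves), with 3 libraries per stage. The labels give no breed, age, treatment or method of isolation, name no animal, and call all 9 libraries testis. Spermatogonia and round spermatid libraries were numbered 1, 2 and 3 and spermatocyte libraries 2, 3 and 4, and values are listed in this order below. In the deposited tables the round spermatid columns carry the sample titles, while columns headed c-kit and Pachy were read as spermatogonia and spermatocytes from those names, so both stages rest on that reading. KIT, the gene that encodes c-kit, had its lowest mean in the columns headed c-kit, at 6.36, 7.47 and 24.6 CPM in the 3 stages, and was called higher in round spermatids than in both other stages, with no call between those (edgeR adjusted p = 0.104). No label ties a library to an animal, so the spread that p-values rest on is that among libraries and may be technical.

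Levels are in CPM, counts relative to the library total and scaled with TMM factors, and levels of different genes are compared only in TPM, which is per transcript length. Library totals ran from 47963279 to 64639201 estimated counts and TMM factors from 0.774 to 1.26. The spermatogonia libraries were very close to each other, with a median chi-square per gene of 0.801 to 0.861 between pairs, against 5.11 to 10.8 for spermatocytes and 0.455 from sampling noise alone. They were counted as 3 libraries, as labelled, which does not show that they are separate samples. With them summed into 1, the calls among the axoneme genes for spermatocytes against spermatogonia went from 57 to 41. Round spermatids 2 stood apart at 20.5 and 22.0 from the others of its stage, which differed from each other by 2.27. Stage markers followed the labels only in part. The summed level of 12 spermatocyte markers was 2083 to 2129 CPM in spermatogonia, 3687 to 4265 in spermatocytes and 745 to 803 in round spermatids, and that of 12 round spermatid markers was 3281 to 3350.4, 2189 to 3361 and 5481 to 7988. Within these lists 6 of the 12 spermatocyte markers were higher and 4 lower in spermatocytes than in spermatogonia. Of the round spermatid markers 4, PRM1, PRM2, TNP1 and TNP2, were higher in round spermatids than in spermatogonia and 7 lower. The libraries labelled spermatogonia thus held both meiotic and spermatid transcripts, while their 11 spermatogonia markers summed to 172 to 175 CPM, against 112 to 125.5 and 183 to 239.8 in the later stages. Much of the round spermatid sum was ID4, with means of 1.03, 1.69 and 104.8 CPM in the 3 stages. Against spermatogonia, 8 of these markers were lower and 1 higher in spermatocytes, and 5 were lower and 4 higher in round spermatids.

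**Figure D1:**
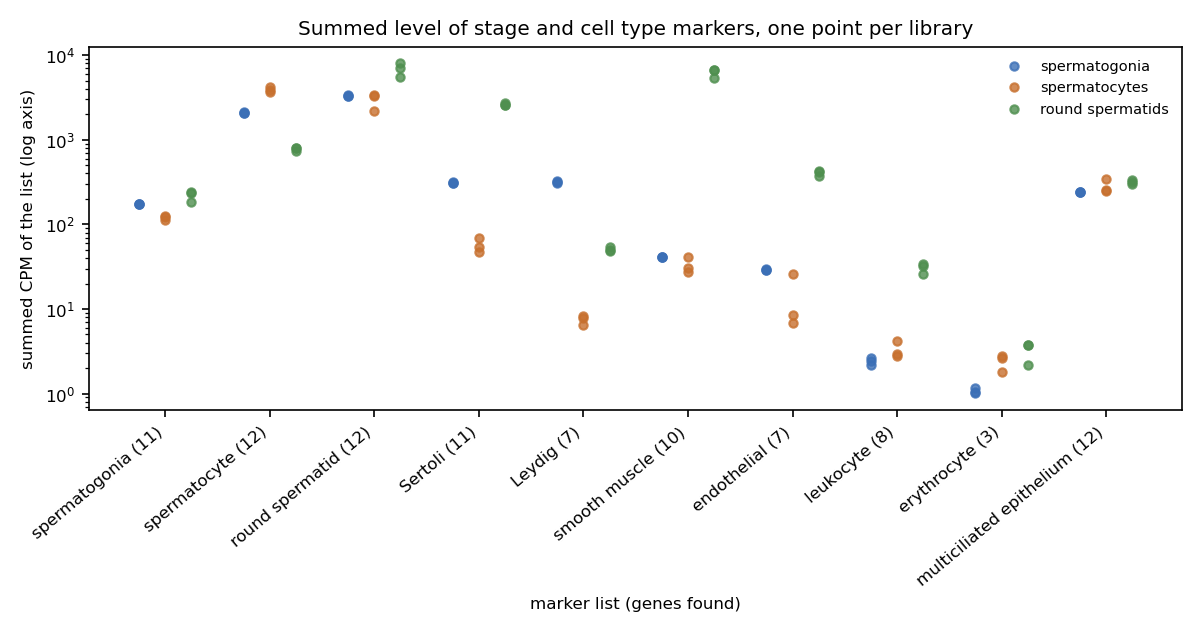
Summed CPM (log axis) of stage and cell type marker lists, 1 point per library, with the number of genes found in brackets. The sum of spermatocyte markers peaked in spermatocytes, while smooth muscle markers ran from 5373 to 6715 CPM in round spermatids and did not exceed 41.6 CPM in the other stages.

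Markers of other testis cells moved with the stages as well. All 10 smooth muscle markers were higher in round spermatids than in either other stage, with sums of 40.9 to 41.6, 27.6 to 41.1 and 5373 to 6715 CPM. The 11 Sertoli markers summed to 306 to 317, 47.3 to 68.2 and 2558 to 2714 CPM, and the 7 endothelial markers to 29.0 to 29.7, 6.81 to 25.9 and 372 to 427. The sum of the 7 Leydig markers was highest in spermatogonia, at 307 to 326, 6.505 to 8.37 and 48.6 to 53.4 CPM. Of these markers 5 were lower in round spermatids than in spermatogonia and 2, HSD17B3 and NR5A1, were higher. The part of these cells in the stage differences below was not tested. Ciliated epithelium of the testis outflow ducts would also carry axoneme transcripts. Its list, 12 of 14 found and with genes that germ cells express too, such as FOXJ1, summed to 241 to 244, 247 to 344 and 300.4 to 335 CPM. Of the list, 4 were higher and 3 lower in round spermatids than in spermatocytes, and KRT8, a keratin of simple epithelia, had means of 1.86, 0.793 and 39.6 CPM. SNTN, a protein of the tips of motile cilia, was at 0 in all libraries of the later stages and at 0.00473 CPM in spermatogonia, the mean of MCIDAS, a switch of multiciliated cells, did not exceed 0.0665 CPM, and CCNO, of the same programme, had means of 6.46, 0.985 and 0.7 CPM. In bulk RNA, fewer cells of a type and less RNA per cell cannot be told apart.

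Axoneme transcripts were abundant in all 3 stages and lowest in round spermatids. The median member stood at 72.3 TPM in spermatogonia, 57.9 in spermatocytes and 24.8 in round spermatids, where the median of all genes tested was 7.36, 3.98 and 6.32 TPM. TPM carries no TMM factors. In CPM the median member stood at 79.7, 85.7 and 39.0, highest in spermatocytes, and the median of all genes tested at 8.96, 6.91 and 11.8. Summed over the 72 genes, the level was 11076 ± 37.6, 10805 ± 449 and 4494 ± 413 TPM (mean ± SD, n = 3). Mean CPM was highest in spermatocytes for 39 members, in spermatogonia for 31, and in round spermatids for 2, TEKT3 and CFAP418. Over all genes tested, the corresponding shares were 28.0% for spermatocytes, 32.4% for spermatogonia and 39.7% for round spermatids.

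**Figure D2:**
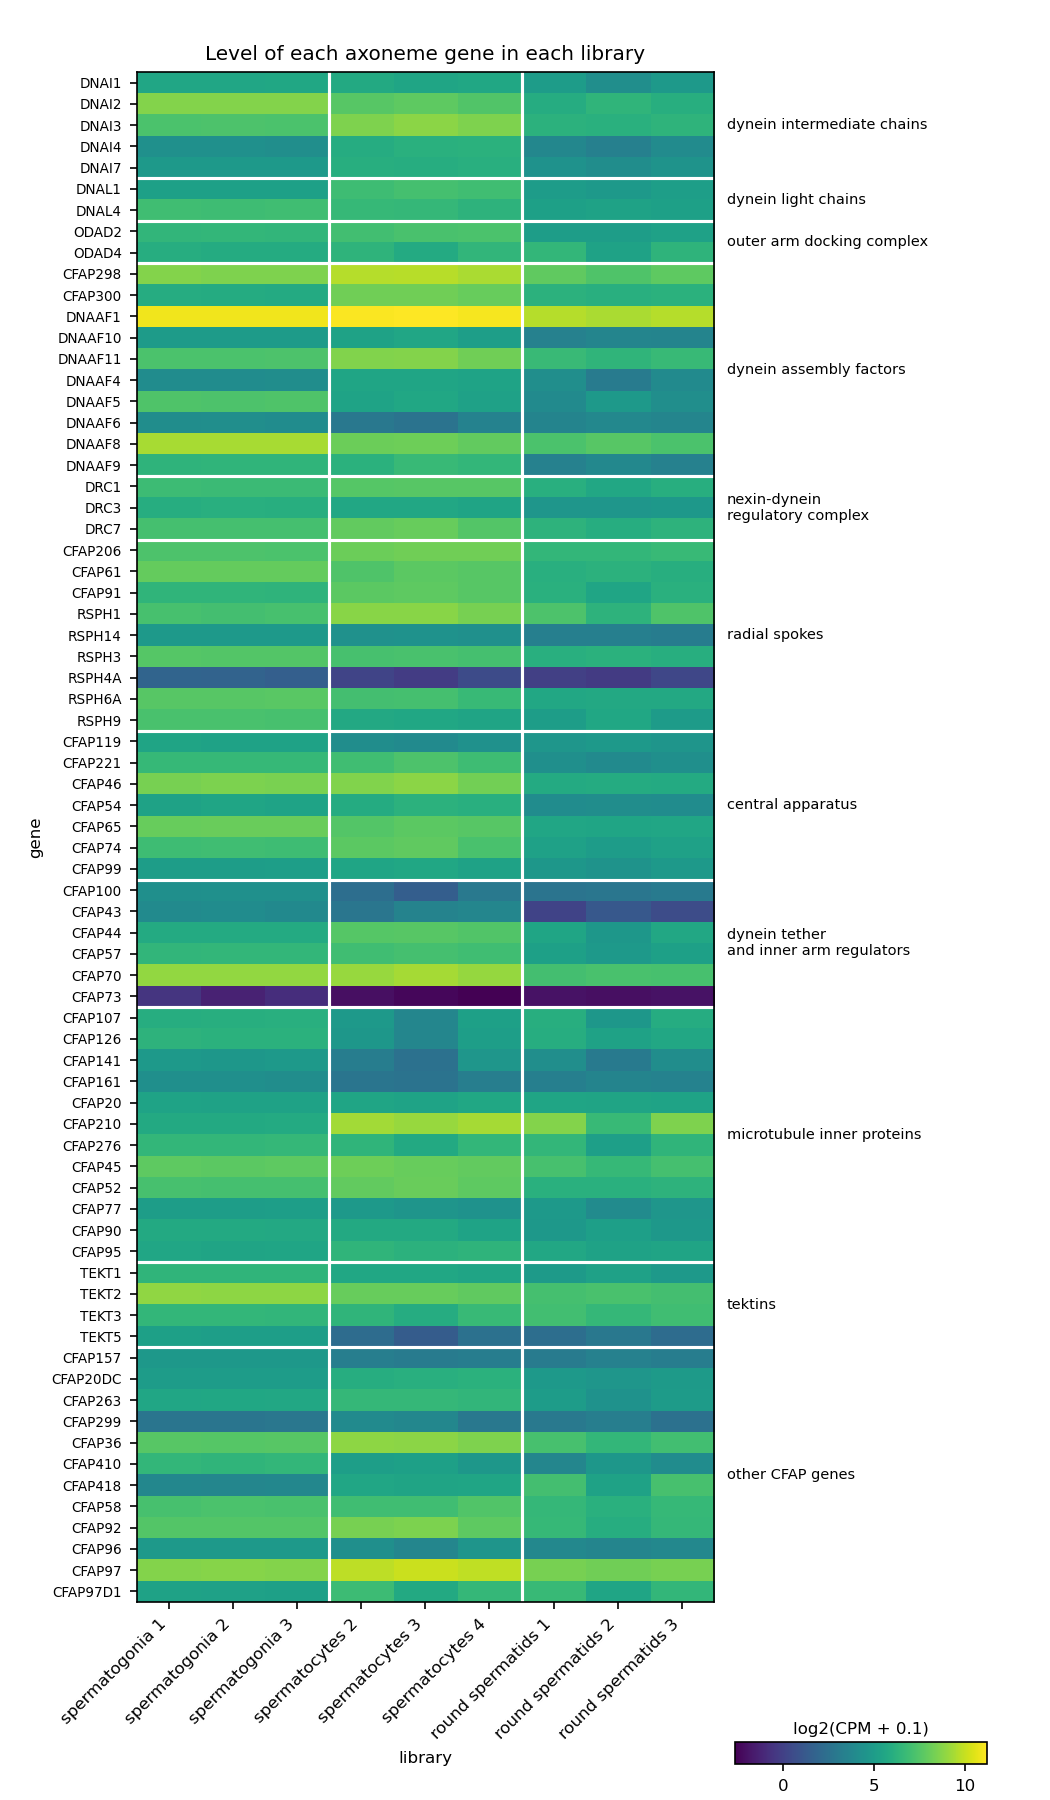
Level of each of the 72 genes (rows, by role class) in each of the 9 libraries (columns) as log2(CPM + 0.1), with a colour scale from dark (low) to yellow (high). DNAAF1 is bright in every library, RSPH4A and CFAP73 are dark in every library, and most genes darken from spermatocytes to round spermatids.

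From spermatogonia to spermatocytes the genes went both ways. In spermatocytes 32 of 72 were higher and 25 lower (edgeR, adjusted p below 0.05), against 29.3% and 44% of the 16802 genes tested, or 73.4% in either direction. Their median log2 fold change was 0.17, and that of all genes tested was -0.32. Libraries of these stages did not overlap for 36 members that were higher in spermatocytes and 29 that were lower, against 31.9% and 48.1% of all genes. These medians moved with the scaling, to 0.36 and -0.14 with the size factors of DESeq2, to -0.25 and -0.74 with library totals alone, and to -0.35 and -0.41 on log2(TPM + 1). The split moved with them, to 36 higher and 18 lower with size factors, 23 and 33 with library totals, and 17 and 32 on TPM. Over all genes the higher and lower shares moved the same way, to 33.4% and 38.6%, 20.1% and 54.8%, and 15.5% and 50.6%. Of the 57 calls here, 34 held their side of the threshold and their direction under all 21 alternatives tried (20 for CFAP73 and DNAAF1, which one setting each did not test), against 45 of 59 and 50 of 58 in the comparisons of round spermatids with spermatocytes and with spermatogonia.

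From spermatocytes to round spermatids the fall was broad. In round spermatids 52 of 72 were lower and 7 higher, against 36.4% and 42.7% of all genes tested (79.2% in either direction). Of the 52, 40 were lower by more than 2-fold, against 4144 of the 6124 lower calls over all genes. The median of all 72 members was -1.17 against 0.19 over all genes. Libraries of the 2 stages did not overlap for 51 members that were lower and 4 that were higher, against 36.1% and 42.1% of all genes. Compared with spermatogonia, round spermatids were lower for 54 members and higher for 4, against 39.7% and 39.5% of all genes (79.2% in either direction), with medians of -0.89 and 0.00. Here 59 members were lower and 5 higher in all libraries, against 43.5% and 41.7%. The comparisons share libraries, so their counts are not independent. In all scalings tried the members' median was below 0 in both comparisons with round spermatids.

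**Figure D3:**
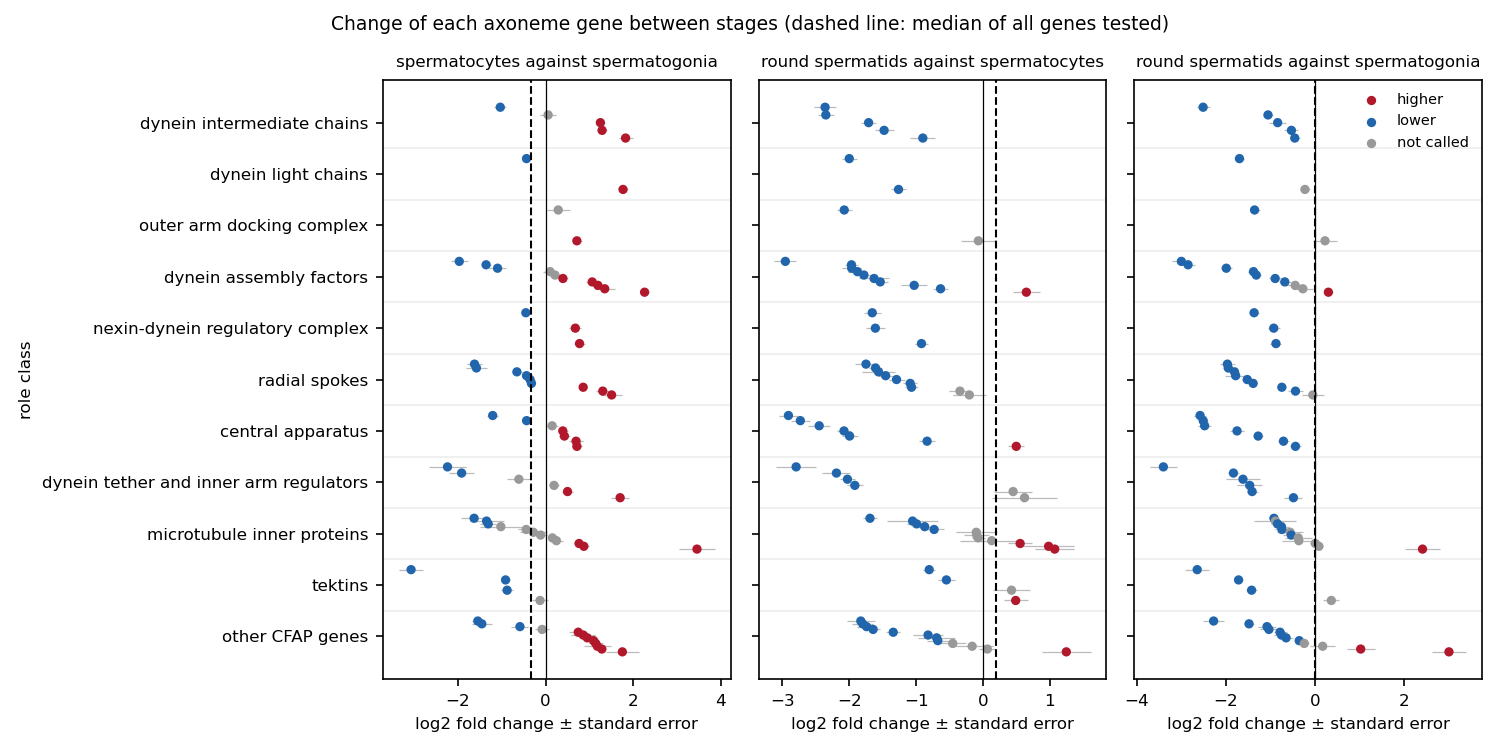
Log2 fold change ± standard error of each of the 72 genes by role class, in the 3 comparisons, coloured by call, with the median of all genes tested as a dashed line. In both comparisons with round spermatids most points lie left of 0, while points for spermatocytes against spermatogonia spread from -3.07 to 3.46.

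Dynein intermediate chains, which sit at the base of a dynein arm and bind it to its doublet, were 5 in number, and all 5 were lower in round spermatids than in either other stage. Over all genes tested, 36.4% were lower in round spermatids than in spermatocytes and 39.7% lower than in spermatogonia. In spermatocytes 3 chains were higher than in spermatogonia and 1 lower, against 29.3% and 44% of all genes. DNAI3, an inner arm chain and by mean TPM over the stages the most abundant of the class (121, 205 and 38.5 TPM in the 3 stages), measured 158, 162 and 158 CPM in spermatogonia, 363, 444 and 365 in spermatocytes and 77.3, 71.0 and 81.6 in round spermatids. The spermatocyte libraries were all above the others, 2.45-fold over spermatogonia (log2 fold change 1.29 ± 0.11, edgeR adjusted p = 4.36e-06), and round spermatids were below both (log2 fold change -2.35 ± 0.12, edgeR adjusted p = 2.9e-08 against spermatocytes). DNAI4, which serves inner arm assembly, measured 19.5, 19.9 and 18.4 CPM in spermatogonia, 61.5, 69.8 and 73.9 in spermatocytes and 13.3, 10.5 and 16.3 in round spermatids. This was one of the 4 largest rises of any member in spermatocytes (log2 fold change 1.83 ± 0.16, edgeR adjusted p = 4.65e-06), and the libraries of the stages did not overlap. DNAI7, tied to inner arms, had the same order of stages, with means of 27.7, 66.0 and 20.2 CPM and a rise in spermatocytes of 1.25 ± 0.11 on the log2 scale. The outer arm pair behaved otherwise. DNAI2 (chromosome 12, 6808966 to 6832767) measured 400.5, 398 and 403 CPM in spermatogonia, 195, 219.7 and 172 in spermatocytes and 60.8, 84.3 and 65.5 in round spermatids, falling at each step (log2 fold change -1.03 ± 0.14, edgeR adjusted p = 8.21e-05 and then log2 fold change -1.48 ± 0.14, edgeR adjusted p = 3.43e-06). DNAI1 (chromosome 10, 32275173 to 32355444) measured 45.8, 46.6 and 48.5 CPM in spermatogonia, 54.9, 44.1 and 47.7 in spermatocytes and 32.1, 18.1 and 28.4 in round spermatids. Its spermatogonia and spermatocyte libraries overlapped (log2 fold change 0.06 ± 0.19, edgeR adjusted p = 0.79), and it was lower in round spermatids (log2 fold change -0.90 ± 0.19, edgeR adjusted p = 0.0012).

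Of the light chains, DNAL1, which binds an outer arm heavy chain at its motor, measured 37.4, 36.8 and 36.7 CPM in spermatogonia, 118, 137 and 123 in spermatocytes and 32.1, 28.1 and 34.4 in round spermatids. Spermatocytes were 3.41-fold above spermatogonia with no overlap (log2 fold change 1.77 ± 0.11, edgeR adjusted p = 9.29e-07), and round spermatids fell back (log2 fold change -1.998 ± 0.11, edgeR adjusted p = 6.73e-08) to a level -0.23 from that of spermatogonia on the log2 scale (adjusted p = 0.0749 with all libraries and 0.045 without round spermatids 3, edgeR). DNAL4, another axonemal light chain and at 118.9, 61.01 and 24.9 TPM the more abundant, measured 124, 118.96 and 125 CPM in spermatogonia, 97.7, 94.1 and 80.0 in spermatocytes and 37.2, 39.5 and 36.6 in round spermatids. It was lower in round spermatids than in spermatocytes (log2 fold change -1.26 ± 0.11, edgeR adjusted p = 1.19e-06), with no overlap. Its lower level in spermatocytes than in spermatogonia (-0.43, adjusted p = 0.00336) was lost with size factors (adjusted p = 0.0861, edgeR). The docking complex fixes outer arms to the doublet. Of its genes ODAD2 and ODAD4 had a matching symbol. ODAD2, at means of 57.4, 65.8 and 14.9 TPM, measured 87.6, 90.1 and 88.9 CPM in spermatogonia, 129, 151 and 158 in spermatocytes and 33.0, 33.0 and 37.9 in round spermatids, and its level in round spermatids was under that of both other stages (log2 fold change -2.07 ± 0.11, edgeR adjusted p = 5.8e-08 against spermatocytes). ODAD4, at means of 62.0, 53.003 and 44.99 TPM, measured 64.0, 59.5 and 59.3 CPM in spermatogonia, 80.8, 55.7 and 86.9 in spermatocytes and 90.3, 40.8 and 81.8 in round spermatids. No comparison of ODAD4 passed the test, with adjusted p = 0.34, 0.82 and 0.457 (edgeR). Round spermatids 2 was its lowest library of that stage, and without it round spermatids were higher than spermatogonia (adjusted p = 0.0207, edgeR).

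Dynein assembly factors fold the heavy chains and join them to the other subunits in the cytoplasm. Of 10 members, 9 were lower in round spermatids than in spermatocytes and 1 higher, against 36.4% and 42.7% of all genes tested. Compared with spermatogonia, 7 were lower and 1 higher, against 39.7% and 39.5% of all genes. In spermatocytes 5 were above spermatogonia and 3 below, against 29.3% and 44%. DNAAF1 (ENSSSCG00000002675, chromosome 6, 4457283 to 4483641), at 1774, 1430.3 and 469 TPM, was the most abundant of the class. It measured 1932, 1894 and 1936 CPM in spermatogonia, 2228, 2371 and 2088 in spermatocytes and 809, 689 and 809 in round spermatids. Round spermatids were below all libraries of the other stages (log2 fold change -1.54 ± 0.11, edgeR adjusted p = 3.71e-07 against spermatocytes), while the difference between the first 2 stages was 0.21 ± 0.11 on the log2 scale and did not pass the test (adjusted p = 0.0951, or 0.0119 without round spermatids 2, edgeR). CFAP300, which works with the assembly factors, measured 60.6, 58.0 and 56.8 CPM in spermatogonia, 290.4, 293 and 257 in spermatocytes and 75.3, 67.5 and 72.6 in round spermatids. The rise in spermatocytes was 4.79-fold (log2 fold change 2.26 ± 0.10, edgeR adjusted p = 3.39e-07), followed by a fall of like size (log2 fold change -1.97 ± 0.10, edgeR adjusted p = 3.92e-08). Its higher level in round spermatids than in spermatogonia was small (log2 fold change 0.30 ± 0.10, edgeR adjusted p = 0.0175) and was lost without spermatogonia 2 (adjusted p = 0.0709), spermatogonia 3 (0.0823) or round spermatids 1 (0.058), all by edgeR, and was -0.32 on TPM.

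Of the remaining assembly factors, CFAP298, DNAAF11, DNAAF4 and DNAAF10 also peaked in spermatocytes, by 1.07, 1.20, 1.35 and 0.40 over spermatogonia on the log2 scale. The last of these was lost without spermatogonia 1 (adjusted p = 0.051, edgeR) or 3, and its difference was -0.13 on TPM. A second set was highest in spermatogonia. DNAAF5 (chromosome 3, 424514 to 462297) measured 164, 164 and 169.6 CPM in spermatogonia, 41.0, 47.6 and 38.5 in spermatocytes and 15.8, 28.0 and 18.5 in round spermatids. It fell 3.92-fold to spermatocytes (log2 fold change -1.97 ± 0.19, edgeR adjusted p = 9.49e-06) and stood 7.99-fold below spermatogonia in round spermatids (log2 fold change -2.999 ± 0.20, edgeR adjusted p = 3.28e-07). DNAAF8 likewise fell at both steps, from 673 to 262 and 169 CPM. With library totals alone the second step of DNAAF5 and DNAAF8 was lost (adjusted p = 0.0571 and 0.347, edgeR). DNAAF9, a homologue of a protein that holds outer arm dynein closed during its delivery, measured 82.0, 86.1 and 84.0 CPM in spermatogonia, 73.99, 105 and 92.5 in spermatocytes and 10.5, 13.96 and 10.5 in round spermatids. Its first 2 stages overlapped (log2 fold change 0.104 ± 0.15, edgeR adjusted p = 0.549), and its drop into round spermatids was the largest of any member (log2 fold change -2.95 ± 0.16, edgeR adjusted p = 6.35e-08). DNAAF6 measured 17.5, 18.1 and 16.8 CPM in spermatogonia, 7.25, 5.98 and 11.2 in spermatocytes and 12.2, 13.7 and 12.5 in round spermatids, and was the one assembly factor that was higher in round spermatids than in spermatocytes (log2 fold change 0.65 ± 0.20, edgeR adjusted p = 0.0129). That call was lost without spermatocytes 2 (adjusted p = 0.0541, edgeR) and on TPM (0.0921, limma). Against spermatogonia DNAAF6 did not pass the test (adjusted p = 0.0598), but did without spermatocytes 3 or 4 (adjusted p = 0.0223 and 0.00344, edgeR).

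The nexin-dynein regulatory complex was represented by DRC1, DRC3 and DRC7. Each was lower in round spermatids than in both other stages, as were 26.0% of all genes tested. DRC1 (chromosome 3, 112581765 to 112621664), a scaffold of the complex and at 155, 185 and 54.9 TPM its most abundant member, measured 115, 112 and 111 CPM in spermatogonia, 187, 198 and 194 in spermatocytes and 67.9, 49.9 and 66.1 in round spermatids. Round spermatids lay below all other libraries (log2 fold change -1.65 ± 0.13, edgeR adjusted p = 5.65e-07 against spermatocytes and log2 fold change -0.88 ± 0.12, edgeR adjusted p = 7.27e-05 against spermatogonia). DRC7 followed the same order, with means of 139, 223 and 73.02 CPM. The higher level of both in spermatocytes than in spermatogonia was lost on TPM (adjusted p = 0.131 and 0.443, limma). That of DRC7 was also lost with library totals alone (adjusted p = 0.0574, edgeR). DRC3 declined from the first stage on, with means of 65.3, 47.8 and 25.3 CPM, although its lower level in spermatocytes than in spermatogonia was lost with size factors (adjusted p = 0.0607, edgeR).

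Radial spoke genes were 9. Against spermatogonia, 8 were lower in round spermatids and none was higher, and against spermatocytes 7 were lower and none higher. Over all genes tested, 39.7% and 36.4% were lower in these comparisons. In spermatocytes 6 spoke genes were below spermatogonia and 3 above (66.7% and 33.3%), against 44% and 29.3% of all genes. With size factors 3 were below, against 38.6% of all genes. CFAP206 (chromosome 1, 55821511 to 55854203), at the base of a spoke and at 196, 247 and 77.8 TPM the most abundant of the class by mean over the stages, measured 159.5, 161.5 and 157 CPM in spermatogonia, 277, 298.02 and 292 in spermatocytes and 92.5, 90.5 and 102 in round spermatids. Its round spermatid libraries were all below those of the other stages (log2 fold change -1.61 ± 0.09, edgeR adjusted p = 8.87e-08 against spermatocytes).

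The spoke head contains RSPH4A in motile cilia and its paralogue RSPH6A in sperm tails. RSPH6A (ENSSSCG00000040714, chromosome 6, 52118695 to 52139183) measured 197, 195 and 202 CPM in spermatogonia, 132, 140.7 and 104 in spermatocytes and 50.8, 51.5 and 51.6 in round spermatids. The stages did not overlap and fell in order, by -0.65 ± 0.12 and then -1.29 ± 0.12 on the log2 scale (edgeR adjusted p = 0.000565 and 2.61e-06). RSPH4A (chromosome 1, 44964433 to 45004925) measured 3.38, 3.26 and 2.80 CPM in spermatogonia, 1.04, 0.786 and 1.32 in spermatocytes and 0.863, 0.745 and 1.13 in round spermatids. Per transcript length, RSPH6A stood at 176, 77.6 and 30.8 TPM and RSPH4A at 3.71, 0.865 and 0.701, so the sperm paralogue was the higher in every stage. The remaining head subunits differed from each other. RSPH9 (chromosome 7, 38624942 to 38641410) had means of 148 ± 1.73, 48.0 ± 4.43 and 37.8 ± 9.08 CPM, with spermatogonia above all other libraries (log2 fold change -1.62 ± 0.16, edgeR adjusted p = 9.82e-06 for spermatocytes). Its spermatocyte and round spermatid libraries overlapped, and among libraries left out in turn the difference passed the test without round spermatids 2 or spermatocytes 4 (adjusted p = 0.000486 and 0.0481, against 0.0654 with all libraries, edgeR). RSPH1 (chromosome 13, 205808923 to 205827098) instead peaked in spermatocytes, with means of 139 ± 5.82, 396 ± 53.5 and 134 ± 49.1 CPM (log2 fold change 1.51 ± 0.25, edgeR adjusted p = 0.000289), and round spermatids overlapped spermatogonia (log2 fold change -0.053 ± 0.24, edgeR adjusted p = 0.846). Among the stalk and base genes, CFAP91 rose in spermatocytes by 1.31 ± 0.16. It was lower in round spermatids than in spermatogonia by a margin of -0.44, which was -0.25 without round spermatids 2 and lost without any 1 of the spermatogonia libraries (highest adjusted p = 0.0626, edgeR). RSPH3, RSPH14 and CFAP61 had means that fell from stage to stage.

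**Figure D4:**
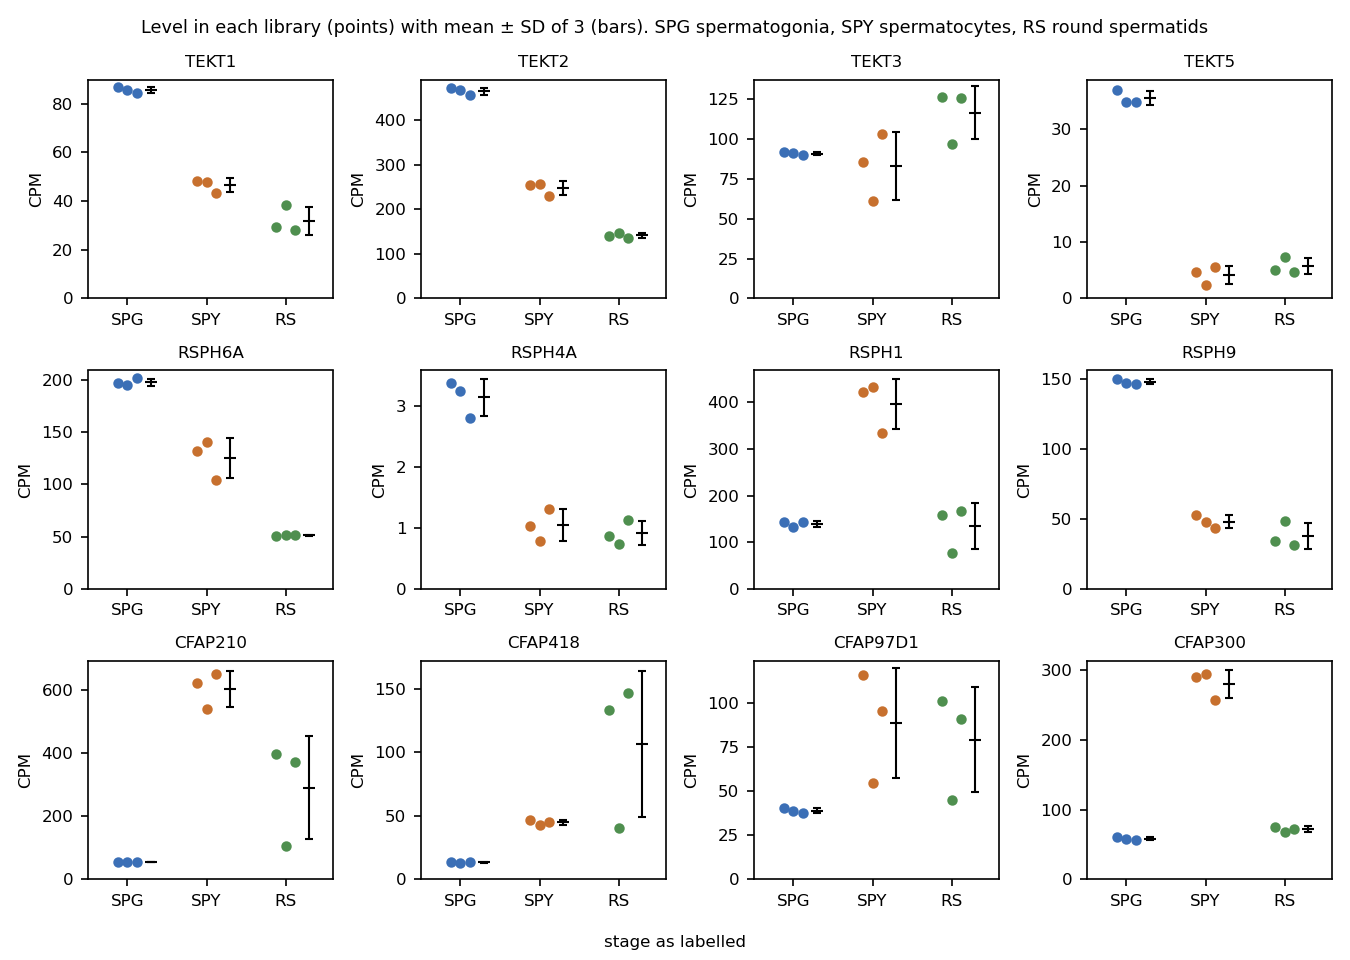
CPM of 12 members in each library (points), with mean ± SD of 3 libraries (bars), for spermatogonia (SPG), spermatocytes (SPY) and round spermatids (RS). TEKT5 drops after spermatogonia, RSPH1 and CFAP300 peak in spermatocytes, and round spermatids 2, the middle point of its stage, lies below its stage for CFAP210, CFAP418 and CFAP97D1.

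The central apparatus surrounds the central pair and sets the beat through the spokes. All 7 of its members were lower in round spermatids than in spermatogonia, and 6 were lower than in spermatocytes. The shares over all genes tested were 39.7% and 36.4%. CFAP46 (chromosome 14, 140916089 to 141002805), a part of the C1d projection and at 78.4, 60.1 and 8.85 TPM the leading member by mean over the stages, measured 331, 353 and 344 CPM in spermatogonia, 389.8, 449 and 302 in spermatocytes and 57.2, 58.3 and 56.5 in round spermatids. The first 2 stages overlapped, and their difference passed the test only without spermatocytes 4 among the libraries left out in turn (adjusted p = 0.337 with all libraries and 0.0229 without it, edgeR). Round spermatids were 6.63-fold below spermatocytes (log2 fold change -2.73 ± 0.14, edgeR adjusted p = 4.61e-08). CFAP221 (chromosome 15, 31585043 to 31685867), of the same projection, measured 100.6, 99.98 and 99.8 CPM in spermatogonia, 125, 160.8 and 119.04 in spermatocytes and 18.9, 15.8 and 19.2 in round spermatids. Its drop into round spermatids was 7.50-fold (log2 fold change -2.91 ± 0.14, edgeR adjusted p = 2.9e-08), the second largest of any member. CFAP54 and CFAP74, also of C1d, were higher in spermatocytes than in spermatogonia by 0.72 and 0.70 and lower in round spermatids by -1.99 and -2.45 on the log2 scale. Their rise to spermatocytes was lost on TPM (0.17 and 0.15, adjusted p = 0.487 and 0.481, limma) and with library totals (0.29 and 0.27, adjusted p = 0.0698 and 0.0839, edgeR), and that of CFAP74 also with the spermatogonia libraries summed (adjusted p = 0.0804). CFAP119 went the other way. It measured 42.99, 40.3 and 40.5 CPM in spermatogonia, 17.8, 15.7 and 20.1 in spermatocytes and 24.6, 27.4 and 23.6 in round spermatids, falling to spermatocytes (log2 fold change -1.21 ± 0.12, edgeR adjusted p = 1.18e-05) and rising by 1.41-fold from there to round spermatids (log2 fold change 0.497 ± 0.12, edgeR adjusted p = 0.00324), with no overlap at either step. This rise was not called on TPM (adjusted p = 0.154, limma).

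CFAP43 and CFAP44 form the tether of an inner arm motor head, CFAP57 and CFAP70 act on inner and outer arms respectively, and CFAP73 and CFAP100 form a complex that modifies inner arms. All 6 were lower in round spermatids than in spermatogonia, against 39.7% of all genes tested. CFAP70 (chromosome 14, 76075269 to 76199898), at 377, 299.7 and 72.0 TPM the most abundant of the 6, measured 497, 504 and 499 CPM in spermatogonia, 537, 654 and 524 in spermatocytes and 131, 148 and 142 in round spermatids. It was 4.07-fold lower in round spermatids than in spermatocytes (log2 fold change -2.03 ± 0.12, edgeR adjusted p = 7.28e-08). CFAP43 (chromosome 14, 115073529 to 115201965) measured 15.8, 16.7 and 15.1 CPM in spermatogonia, 6.88, 11.5 and 12.7 in spermatocytes and 0.998, 2.13 and 1.35 in round spermatids. Its fall to round spermatids was 10.6-fold from spermatogonia (log2 fold change -3.40 ± 0.30, edgeR adjusted p = 2.22e-06), the largest of any member in that comparison, and 6.93-fold from spermatocytes. Between the first 2 stages it did not pass the test (adjusted p = 0.0602), but did without spermatocytes 4, round spermatids 1 or round spermatids 2 (adjusted p = 0.0334, 0.044 and 0.0265, edgeR). Its partner CFAP44 peaked in spermatocytes, with means of 56.4 ± 0.434, 183 ± 11.103 and 40.2 ± 12.7 CPM (log2 fold change 1.70 ± 0.21, edgeR adjusted p = 3.74e-05). Round spermatids were lower than spermatogonia for CFAP44 by -0.49 with an adjusted p of 0.0457, a call that was lost without any 1 library of the other 2 stages (highest adjusted p = 0.0885, edgeR) and a difference of -0.25 without round spermatids 2.

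CFAP100 (chromosome 7, 53909353 to 53949648) measured 18.6, 19.5 and 19.6 CPM in spermatogonia, 4.998, 2.68 and 7.56 in spermatocytes and 6.36, 6.72 and 7.79 in round spermatids. Spermatogonia were above all other libraries, 3.78-fold over spermatocytes (log2 fold change -1.92 ± 0.29, edgeR adjusted p = 0.000177), and the later stages overlapped (log2 fold change 0.45 ± 0.29, edgeR adjusted p = 0.172). That last difference passed the test without spermatocytes 4 (adjusted p = 0.00797, edgeR). Its partner CFAP73 was the lowest member, at 0.585, 0.0814 and 0.126 TPM and at most 42 counts in a library.

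Microtubule inner proteins stiffen the doublet wall, and their 12 members went both ways. In round spermatids 3 were higher and 5 lower than in spermatocytes, against 42.7% and 36.4% of all genes, and 1 was higher and 5 lower than in spermatogonia, against 39.5% and 39.7%. CFAP210 (ENSSSCG00000015935) led the class by mean over the stages, at 157, 1206 and 498 TPM, although CFAP141 was higher in spermatogonia, at 483, 170.1 and 161.4 TPM. It measured 53.7, 55.0 and 56.2 CPM in spermatogonia, 623, 539 and 651 in spermatocytes and 397, 105 and 373 in round spermatids. Spermatocytes were 10.99-fold above spermatogonia (log2 fold change 3.46 ± 0.41, edgeR adjusted p = 3.29e-05), the largest rise of any member, and round spermatids remained 5.30-fold above spermatogonia (log2 fold change 2.41 ± 0.39, edgeR adjusted p = 0.000219). Round spermatids 2 was far below the other libraries of its stage. The fall from spermatocytes (log2 fold change -1.05 ± 0.38, edgeR adjusted p = 0.0248) was -0.65 without that library, and it was lost without spermatocytes 2 (adjusted p = 0.0589) or 4 (0.0605, edgeR) and with library totals alone (0.099).

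CFAP126, CFAP161 and CFAP107 had their lowest levels in spermatocytes. CFAP126 (chromosome 4, 89108048 to 89133525) measured 79.2, 73.7 and 73.02 CPM in spermatogonia, 25.1, 13.1 and 34.7 in spermatocytes and 62.5, 39.9 and 50.8 in round spermatids. It fell 3.10-fold to spermatocytes (log2 fold change -1.63 ± 0.30, edgeR adjusted p = 0.00059) and was 2.10-fold higher again in round spermatids (log2 fold change 1.07 ± 0.29, edgeR adjusted p = 0.00626). CFAP161 (chromosome 7, 49912450 to 49940708) measured 19.02, 18.6 and 17.6 CPM in spermatogonia, 6.62, 5.94 and 9.68 in spermatocytes and 9.75, 12.01 and 10.9 in round spermatids, a fall (log2 fold change -1.31 ± 0.18, edgeR adjusted p = 9.4e-05) and a smaller rise (log2 fold change 0.56 ± 0.18, edgeR adjusted p = 0.0157). The rise was lost without spermatocytes 2 (adjusted p = 0.0628) or 3 (0.0549, edgeR) and on TPM (0.164, limma). CFAP107 had means of 65.6 ± 1.73, 25.8 ± 11.9 and 50.9 ± 22.1 CPM, and its rise to round spermatids (log2 fold change 0.98 ± 0.39, edgeR adjusted p = 0.0372) was lost without 7 of the 9 libraries, all but spermatocytes 4 and round spermatids 2 (highest adjusted p = 0.13, edgeR). CFAP52, a protein of the inner junction of the doublet, was also highest in spermatocytes, with means of 140.1 ± 3.24, 238 ± 22.7 and 73.9 ± 4.82 CPM (log2 fold change -1.69 ± 0.11, edgeR adjusted p = 1.46e-07 for round spermatids against spermatocytes). CFAP20, also of the inner junction, stood at means of 40.8 ± 0.567, 45.5 ± 3.28 and 43.2 ± 1.87 CPM, and CFAP276 and CFAP141 did not pass the test in any comparison either. CFAP20 was called higher in spermatocytes than in spermatogonia with size factors (adjusted p = 0.0132, edgeR). On TPM it was called lower in round spermatids than in spermatogonia (0.0402, limma). Between the later stages CFAP20 rose with library totals alone (0.0202) and fell without the 50 most abundant genes (0.0361, both edgeR). CFAP276 was lower in both later stages than in spermatogonia on TPM (0.0102 and 0.00158, limma). CFAP141 passed all 3 comparisons without spermatocytes 4 (adjusted p = 0.00116, 0.0262 and 0.0177, edgeR).

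Tektins form filaments inside the doublet wall. TEKT1, TEKT2 and TEKT5 were lower in both later stages than in spermatogonia, and TEKT3 was not. Of all genes tested, 44% were lower than in spermatogonia in spermatocytes and 39.7% in round spermatids. TEKT2 (chromosome 6, 92233479 to 92238125), the most abundant at 756, 279 and 156 TPM, measured 472, 469 and 456 CPM in spermatogonia, 256, 257 and 229 in spermatocytes and 141.3, 147 and 136 in round spermatids. Its stages did not overlap and fell in order (log2 fold change -0.91 ± 0.09, edgeR adjusted p = 1.28e-05, then log2 fold change -0.80 ± 0.09, edgeR adjusted p = 1.58e-05). TEKT1 (chromosome 12, 50526188 to 50552083) measured 86.7, 85.6 and 84.2 CPM in spermatogonia, 48.4, 48.0 and 43.2 in spermatocytes and 29.2, 38.4 and 27.9 in round spermatids, also without overlap (log2 fold change -0.88 ± 0.13, edgeR adjusted p = 0.000152, then log2 fold change -0.55 ± 0.13, edgeR adjusted p = 0.00277). The second step of TEKT1 was lost with library totals alone (adjusted p = 0.736, edgeR). TEKT5 (ENSSSCG00000007904, chromosome 3, 32350906 to 32393123), known from sperm tails, measured 37.0, 34.9 and 34.8 CPM in spermatogonia, 4.63, 2.44 and 5.59 in spermatocytes and 5.03, 7.33 and 4.70 in round spermatids. The fall to spermatocytes was 8.40-fold (log2 fold change -3.07 ± 0.28, edgeR adjusted p = 6.35e-06), the largest of any member in that comparison. Round spermatids remained 6.25-fold below spermatogonia (log2 fold change -2.64 ± 0.28, edgeR adjusted p = 7.47e-06) and overlapped spermatocytes (log2 fold change 0.43 ± 0.27, edgeR adjusted p = 0.169, or an adjusted p of 0.048 without spermatocytes 4). TEKT3 (chromosome 12, 58734289 to 58773400) measured 91.5, 90.8 and 89.6 CPM in spermatogonia, 85.3, 60.9 and 102.9 in spermatocytes and 126.4, 97.1 and 125.9 in round spermatids. Its mean was highest in round spermatids, but the libraries overlapped those of spermatocytes. The rise from spermatocytes (log2 fold change 0.49 ± 0.18, edgeR adjusted p = 0.028) was lost without spermatocytes 2, spermatocytes 3, round spermatids 1 or round spermatids 3 (adjusted p = 0.0606 to 0.0904, edgeR) and was 0.30 without spermatocytes 3, and it was lost with size factors (adjusted p = 0.0509, edgeR) and on TPM (0.0947, limma). Against spermatogonia TEKT3 had an adjusted p of 0.0859, which was 0.0321 without round spermatids 2, 0.027 without spermatocytes 3 and 0.0496 without spermatocytes 4 (edgeR).

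The remaining 12 CFAP genes have less settled places in the axoneme. In spermatocytes 8 were higher than in spermatogonia and 3 lower, against 29.3% and 44% of all genes tested. In round spermatids 8 were lower and 1 higher than in spermatocytes, against 36.4% and 42.7%. CFAP97 (chromosome 15, 46207781 to 46257478), the most abundant at 953, 1616 and 494 TPM, measured 396, 411 and 405 CPM in spermatogonia, 917, 1080.0 and 956 in spermatocytes and 332, 289.6 and 325 in round spermatids. It rose 2.44-fold (log2 fold change 1.28 ± 0.11, edgeR adjusted p = 3.33e-06) and fell again 3.12-fold (log2 fold change -1.64 ± 0.11, edgeR adjusted p = 1.84e-07). CFAP36, CFAP92, CFAP263 and CFAP20DC had the same pair of calls. The rise of CFAP92 was lost on TPM (adjusted p = 0.302, limma) and with library totals alone (adjusted p = 0.0954, edgeR). CFAP418 (ENSSSCG00000034398), a gene linked to inherited retinal disease, was the only member of the 72 higher in round spermatids than in both other stages. It measured 13.7, 12.8 and 13.6 CPM in spermatogonia, 46.8, 42.9 and 45.2 in spermatocytes and 133, 40.3 and 146.3 in round spermatids. The rise was 3.37-fold to spermatocytes (log2 fold change 1.75 ± 0.37, edgeR adjusted p = 0.00155) and 7.99-fold from spermatogonia to round spermatids (log2 fold change 2.999 ± 0.39, edgeR adjusted p = 3.76e-05). Round spermatids 2 lay at the level of spermatocytes, so these stages overlapped (log2 fold change 1.25 ± 0.36, edgeR adjusted p = 0.00887). CFAP97D1, which mouse sperm tails need, measured 40.2, 38.9 and 37.8 CPM in spermatogonia, 116, 54.4 and 95.3 in spermatocytes and 101.1, 45.2 and 90.8 in round spermatids. Round spermatids were 2.03-fold above spermatogonia with no overlap (log2 fold change 1.02 ± 0.31, edgeR adjusted p = 0.0114), a call that was lost on TPM (adjusted p = 0.264, limma). CFAP410 and CFAP157 were highest in spermatogonia, with means of 89.2, 32.5 and 18.4 and 26.4, 9.05 and 9.46 CPM.

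Seen across the stages, 30 of 72 members rose to spermatocytes and then fell to round spermatids, which is 41.7% against 19.5% of all genes tested. On TPM 16 did (11.5% of all genes), with library totals alone 20 (11.8%) and with the spermatogonia libraries summed 22 (13.02%). With size factors 33 rose and then fell (22.3%). Another 13 fell at both steps, against 8.55% of all genes, among them DNAI2, DNAL4, DNAAF5, DNAAF8, RSPH6A, TEKT1 and TEKT2. This count was 8 with size factors (6.89% of all genes) and 15 on TPM (10.6%). The opposite order, a fall and then a rise, was found for 5 members against 26.2% of all genes, namely CFAP107, CFAP119, CFAP126, CFAP161 and DNAAF6, and on TPM for 2 against 22.8%. Round spermatids were below both other stages for 44 members, or 61.1% against 26.0% of all genes, and above both for CFAP418 alone, where 30.1% of all genes were. From spermatogonia to round spermatids the fold fall in the summed TPM of a class was largest for the central apparatus, 4.91-fold with means of 387 ± 6.88, 275.9 ± 25.3 and 78.9 ± 23.9 TPM, and smallest for the microtubule inner proteins, 1.56-fold with 1891 ± 16.5, 1995 ± 390.5 and 1215 ± 188 TPM. The last sum includes CFAP210, the only gene of that class called higher in round spermatids than in spermatogonia, with the TPM given above. The ranking of classes without CFAP210 was not computed. These folds carry no TMM factors. For round spermatids against spermatogonia the median of all genes was -0.39 on log2(TPM + 1), against 0.00 in the reported fit. That of the central apparatus was -2.24 on log2(TPM + 1), against -1.75 in the reported fit.

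**Figure D5:**
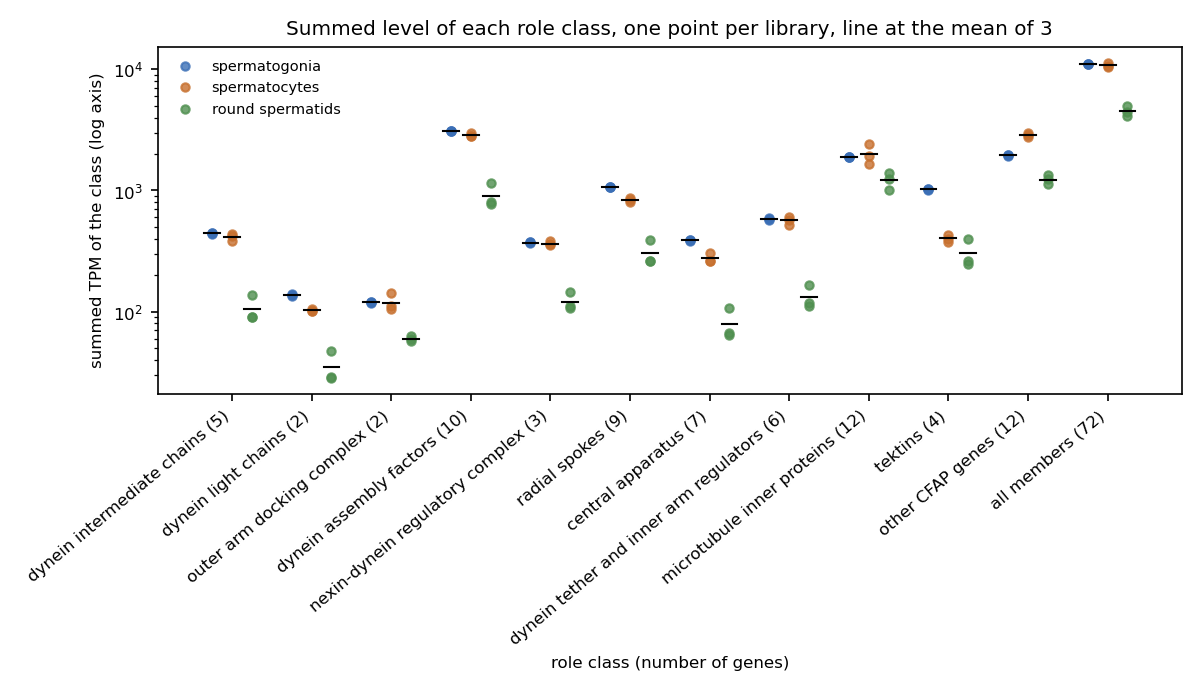
Summed TPM (log axis) of each role class, 1 point per library, with a line at the mean of 3 libraries and the number of genes in brackets. Round spermatid points are the lowest of their class in every class but the tektins, where round spermatids 2 lies among the spermatocytes.

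Other genes of the same structures give the setting of these values. The 10 axonemal dynein heavy chains found, the motors themselves, were all lower in round spermatids than in spermatogonia, and 9 were lower than in spermatocytes (medians -1.92 and -2.47). Over all genes tested, 39.7% and 36.4% were lower in these comparisons, which also holds for the lists below. In spermatocytes 3 of the heavy chains were higher than in spermatogonia and 2 lower, against 29.3% and 44% of all genes. DNAH17, a sperm outer arm chain, measured 665, 726 and 658 CPM in spermatogonia, 496, 769 and 585 in spermatocytes and 86.9, 135 and 102 in round spermatids, and DNAH9, its counterpart in respiratory cilia, stood at means of 22.3, 12.9 and 7.22 CPM. Of 14 intraflagellar transport genes, which carry parts into a growing axoneme, 13 were lower in round spermatids than in spermatocytes and 11 lower than in spermatogonia. Of 9 central apparatus genes under other names, all 9 were lower in round spermatids than in both other stages, and of 6 genes of the ruler and regulatory complex 6 were lower than in spermatocytes and 4 lower than in spermatogonia. Of 7 assembly factors under other names 5 were lower and PIH1D1 higher than in spermatocytes. ZMYND10, an assembly factor for both kinds of arm, measured 809, 808 and 795 CPM in spermatogonia, 328, 375 and 297 in spermatocytes and 108, 166 and 103.4 in round spermatids.

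Genes of the later tail went both ways. Of 10 genes of the outer dense fibres and fibrous sheath, which surround the finished axoneme, 3 rose and 4 fell from spermatocytes to round spermatids (median -0.17), against 42.7% and 36.4% of all genes. ODF1 and AKAP4, of the dense fibres and of the sheath, rose by 1.89 ± 0.34 and 1.35 ± 0.33 on the log2 scale (edgeR adjusted p = 0.000472 and 0.0032). Of 25 inner proteins under other names 7 rose and 9 fell at that step, and TPPP2 rose most, by 2.75 ± 0.34 on that scale. Among 13 regulators of the ciliary programme tested, 8 fell and 2 rose at that step, both with values below. FOXJ1, the transcription factor of motile cilia, measured 135, 134 and 138 CPM in spermatogonia, 94.1, 89.7 and 116 in spermatocytes and 198, 184 and 201 in round spermatids, with round spermatids the highest stage (log2 fold change 0.96 ± 0.12, edgeR adjusted p = 2.03e-05 against spermatocytes). MYB, a regulator of multiciliated cells, stood at means of 1.31, 0.782 and 1.25 CPM (log2 fold change 0.67 ± 0.25, edgeR adjusted p = 0.0286). RFX2, a regulator of ciliary genes needed for spermatid development, measured 1081, 1074 and 1101 CPM in spermatogonia, 499, 587 and 508 in spermatocytes and 250.2, 334 and 244 in round spermatids, falling at each step (log2 fold change -1.03 ± 0.14, edgeR adjusted p = 6.9e-05, then log2 fold change -0.95 ± 0.14, edgeR adjusted p = 8.2e-05). MYBL1, a regulator of meiotic genes, measured 52.7, 57.2 and 56.6 CPM in spermatogonia, 316, 357 and 340.4 in spermatocytes and 30.04, 20.9 and 32.3 in round spermatids, and SOX30 and TCFL5, of late meiosis and spermatids, had the same peak in spermatocytes, with means of 94.3, 186 and 58.9 and 555, 937 and 246 CPM.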

How the data were processed

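The authors deposited a table of estimated counts per gene and a table of TPM for the same genes and libraries, with no header on how they were made. Per the labels' protocols, total RNA went into a directional library kit and was sequenced in pairs on an Illumina HiSeq. The submitters' processing notes name Sscrofa11.1 and bcl2fastq, and no aligner, counter or annotation (not given in the sources used here). Use of strand in counting is not stated, which leaves genes that overlap or lie antisense uncertain, and near-identical paralogues too.

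Of 15 library columns 9 were used and 6 were not. Round spermatid columns carry the sample titles. Columns headed c-kit and Pachy were taken as spermatogonia and spermatocytes from the meaning of those names, which the labels do not state. Replicate numbers did not pair libraries (correlations of deviations between -0.048 and 0.028), so no block was used.

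Estimated counts were rounded, filtered with filterByExpr, scaled with TMM and fitted over all 9 libraries with edgeR 4.0.16 (glmQLFit, glmQLFTest, R 4.3.3). Adjusted p-values are Benjamini-Hochberg over 16802 genes, called below 0.05, and the standard error is the log2 fold change over the square root of F. In simulated counts the fit recovered 53 to 59% of 2-fold and 90 to 93% of 4-fold changes, with 5 to 13 false calls. Few genes were changed there, equally up and down, while most genes were called in the real data. These shares therefore do not give the power of the comparisons above. Alternatives were other scalings and filters, DESeq2 1.42.0, limma 3.58.1 (voom, and log2 TPM with a pseudocount of 1 or 0.1), only the compared stages, no top 50 genes, spermatogonia summed, a replicate block and each library left out. Members, lists and tests were chosen with earlier results of these data known. Genes with full values were, per comparison, the 4 largest rises and falls among called members without overlap and with at least 10 CPM, and the most abundant member per class. Small sets chosen by name were added, namely RSPH4A and RSPH6A, the tektins, DNAI1 and DNAI2, DNAL1 and DNAL4, and the ODAD genes.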

Additional observations from a re-analysis of the deposited data

How the results depend on the processing

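The 6 counts of called members were recomputed under 21 alternatives. The 3 counts of lower members stayed within 1.5 times of 25, 52 and 54 throughout. The count of higher members changed more. For spermatocytes against spermatogonia it was 32, and 17 on TPM with either pseudocount. For round spermatids against spermatocytes it was 7, and 11 with library totals alone, 2 with no filter, 3 on TPM with either pseudocount, 2 without the 50 most abundant genes, and 3 to 10 with 1 library left out (3 without spermatocytes 2, 4 without spermatocytes 3 and 10 without spermatocytes 4). For round spermatids against spermatogonia it was 4, and 2 on TPM with either pseudocount and with the spermatogonia libraries summed. The cause was not tested.

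With the replicate block the counts were 32 higher and 25 lower, 7 and 52, and 4 and 56 in the same order of comparisons. It changed the call of CFAP418 between round spermatids and spermatocytes (adjusted p = 0.0813, edgeR), among others. Same-numbered libraries did not deviate together.

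The sign turned as follows against a call in the reported fit or under the alternative, with TPM values for pseudocounts 1 and 0.1. DNAI1, DNAAF1, CFAP20 and CFAP95 were called only under the alternative, and the others only in the reported fit. In spermatocytes against spermatogonia CFAP221 was -0.11 and -0.11 on TPM, CFAP57 -0.023 and -0.024, CFAP99 -0.13 and -0.13, DNAAF10 -0.13 and -0.14, and DNAI1 -0.46 and -0.47. With library totals alone CFAP99 and DNAAF10 were at -0.031 and -0.030 and DNAAF1 at -0.21. In round spermatids against spermatogonia, TPM gave -0.32 and -0.32 for CFAP300, -0.51 and -0.53 for CFAP20, and -0.60 and -0.61 for CFAP95. CFAP20 was 0.38 in round spermatids against spermatocytes with library totals alone. Of the other results for single members 171 lost and 124 gained a call under an alternative, and 4214 kept theirs.

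In spermatocytes against spermatogonia the share of higher members among those called was 56.1% (39.98% for all genes), and 66.7% with size factors (46.4%), 67.3% with no filter (47.7%), 41.1% with library totals (26.8%) and 34.7% on TPM (23.4%). Depth was at least 47963279 estimated counts a library.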
